A study of Mus musculus with 8 samples.

Results

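The p53 target and apoptosis genes described here are 10 mouse genes, Ccng1, Perp, Cdkn1a, Mdm2, Trp53, Trp53inp1, Bax, Bbc3, Sesn2 and Zmat3, read through all non-control probe sets whose platform annotation names 1 of them alone. This gave 15 probe sets for 8 of the genes, of 34945 single-gene probe sets for 18193 genes in all. No probe set in use named Trp53 or Bax, and these 2 genes were not analysed here. A probe set is a group of short probes that report together on a transcript, and it has 1 intensity per array. Its brightness depends on the probes as well as on the RNA, so levels were compared between arrays and not between probe sets.

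Embryoid bodies are clumps of differentiating embryonic stem cells grown in suspension. A set of 4 samples, replicates 5 to 8, received 500 nM retinoic acid and 1 uM of the Hedgehog (Hh) agonist HH-Ag, and another 4, replicates 1 to 4, received 500 nM retinoic acid alone, in both cases after 2 days in suspension. The labels give the stem cell line as YFP3.1 with constitutively expressed Gli1FLAG, a tagged transcription factor of the Hh pathway that both groups thus carry, and a stage of 3 days, except for agonist replicate 7, whose labels give neither. The design text calls them biological replicates but does not state whether they came from separate cultures, and the p-values cover no more than the spread among these 8 arrays, which may be technical.

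p53, the product of Trp53, is a transcription factor that accumulates when DNA is damaged or growth is disturbed, and it switches on genes that halt the cell cycle, repair damage or start apoptosis. Mdm2, itself a p53 target, marks p53 for degradation and so closes a feedback loop. Embryonic stem cells hold much p53, and many of its targets are also read at a low level without damage, under the control of other factors.

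The p53 protein binds DNA as a tetramer at pairs of 10-base decamers. The sequences just upstream of 3 measured members are shown because they hold at least 1 such decamer. Of these only the Cdkn1a window held 2, and those of Ccng1 and Mdm2 held 1 each. They are the 250 bases before the annotated gene start in RefSeq, build GRCm38.p6, written 5′ to 3′ on the strand of the gene, with matches to the p53 consensus decamer in capitals. The Ccng1 window is chr11:40755287-40755536 on the minus strand, the Cdkn1a window chr17:29090729-29090978 on the plus strand, and the Mdm2 window chr10:117710759-117711008 on the minus strand.
Ccng1: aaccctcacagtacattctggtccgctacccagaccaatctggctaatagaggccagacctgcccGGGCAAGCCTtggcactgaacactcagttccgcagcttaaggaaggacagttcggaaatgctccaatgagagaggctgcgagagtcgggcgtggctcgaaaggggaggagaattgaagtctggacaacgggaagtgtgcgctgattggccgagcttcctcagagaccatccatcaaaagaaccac
Cdkn1a: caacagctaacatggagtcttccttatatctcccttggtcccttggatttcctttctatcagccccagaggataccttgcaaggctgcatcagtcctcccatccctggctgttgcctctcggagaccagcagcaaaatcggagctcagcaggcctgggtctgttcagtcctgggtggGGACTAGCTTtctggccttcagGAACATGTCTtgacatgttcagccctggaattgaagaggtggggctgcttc
Mdm2: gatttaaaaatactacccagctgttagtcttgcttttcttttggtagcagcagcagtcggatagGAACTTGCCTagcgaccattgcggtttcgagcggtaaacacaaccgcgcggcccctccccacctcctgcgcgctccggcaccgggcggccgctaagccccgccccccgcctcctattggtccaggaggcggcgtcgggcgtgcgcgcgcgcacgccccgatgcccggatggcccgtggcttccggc
Counting the last base before the start as -1, the decamer began at -185 in Ccng1 and at -186 in Mdm2. Cdkn1a held 2 decamers, at -73 and -51, with 12 bases between them, counted from the more upstream of its annotated starts. The window of the other Cdkn1a start is chr17:29093519-29093768 on the plus strand. The consensus reads the same on both strands, and 7.13% of all 32851 windows of this length held at least 1 match, while 0.0639% held 2 matches with at most 13 bases between them. RefSeq windows were at hand for 5 of the 8 measured members. The windows of Sesn2 (1 start) and Bbc3 (3 starts), and that of the other Cdkn1a start, held no match, which says only that these letters are not in them. Only exact matches to the consensus are in capitals, so decamers with a mismatch are not marked. A match is a description of letters, and binding was not measured here.

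The comparison asks whether transcripts of this pathway respond to added Hh agonist in retinoic acid-treated bodies. Perp and Ccng1 fell with the agonist, and the other 6 measured genes did not pass the test. Perp was 1.53-fold lower and the brightest Ccng1 probe set 1.23-fold lower on the scale of log2(intensity + 16). None of the members rose, and 0 were higher at an unadjusted limma p under 0.05. Of the 15 probe sets 14 were bright enough to be tested, and 2 of these 14 passed a limma adjusted p of 0.05, both lower. Over all 27022 tested probe sets 0.733% were called lower and 1.14% higher. The members were chosen with earlier results of these data known, so this contrast is a description.

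**Figure D1:**
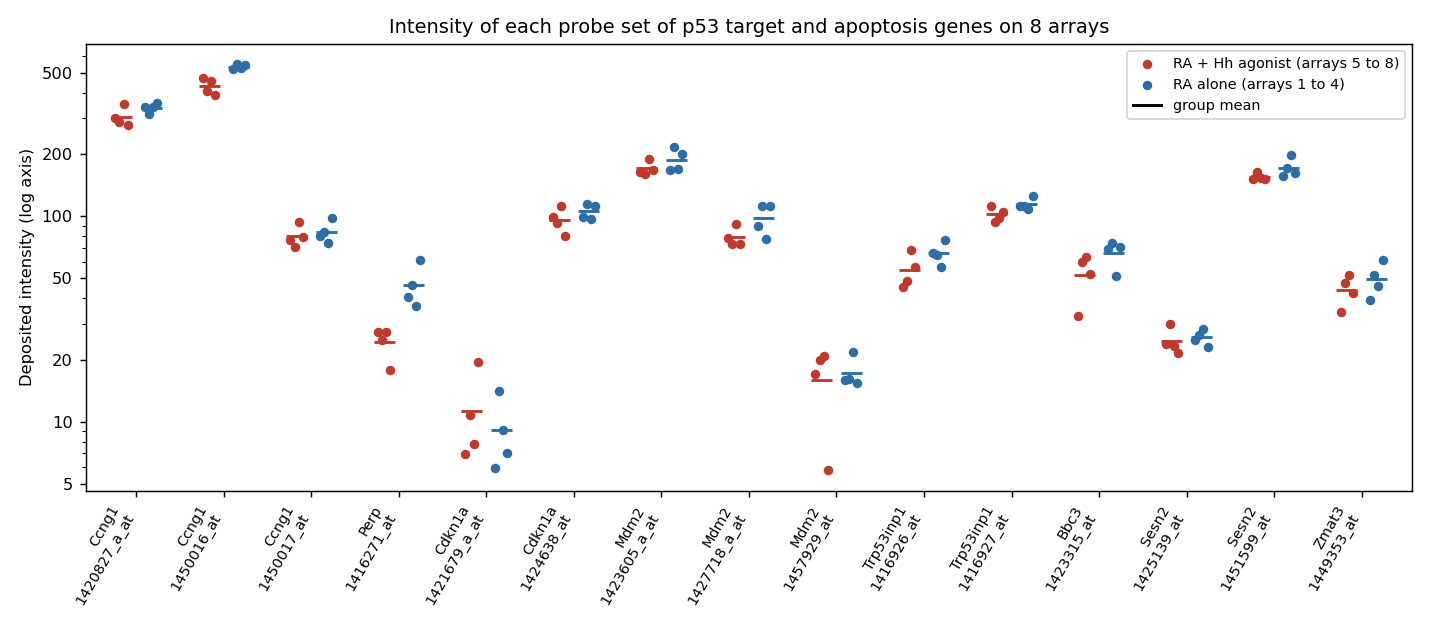
Deposited intensity (log axis) of all 15 probe sets on each of the 8 arrays, with the agonist in red at the left of each pair, retinoic acid alone in blue at the right and group means as bars. The groups are apart for Perp and for 1 Ccng1 probe set (1450016_at) and overlap for the other 13.

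Perp encodes a membrane protein that p53 induces during apoptosis and that also forms part of desmosomes, the junctions of epithelial cells. Its 1 probe set (1416271_at) had intensities of 27.2, 24.9, 27.2 and 17.9 with the agonist, against 40.5, 46.4, 36.6 and 61.3 with retinoic acid alone. All 4 agonist arrays lay below all 4 arrays without it, with replicate 8 lowest and retinoic acid replicate 4 highest. The means were 24.3 ± 4.41 with the agonist and 46.2 ± 10.8 with retinoic acid alone (SD, n = 4 each). The log2 change was -0.62 (SE 0.13, 95% interval -0.90 to -0.34, limma adjusted p = 0.0183). The added 16 shrinks the change of a gene this dim, and the log2 change was -0.89 with 1 added and -0.32 with 64 added. The call was lost without an intensity trend in the variance (limma adjusted p = 0.0544). It held on leaving out any of the odd-numbered replicates and was lost without retinoic acid replicate 2 (limma adjusted p = 0.0643) or 4 (0.0649), or without agonist replicate 6 (0.0520) or 8 (0.0740), with log2 changes between -0.63 and -0.51.

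Ccng1 encodes cyclin G1, an atypical cyclin and p53 target that brings a phosphatase to Mdm2 and so takes part in the feedback on p53. The brightest of its 3 probe sets (1450016_at) had 473, 408, 456 and 390.0 with the agonist, against 522, 549, 524 and 546 with retinoic acid alone. The groups did not overlap, and the spread was wider with the agonist, at 432 ± 39.1, against 535 ± 14.2 with retinoic acid alone (SD, n = 4 each). The log2 change was -0.30 (SE 0.065, 95% interval -0.44 to -0.17, limma adjusted p = 0.0174). This call was lost without an intensity trend (limma adjusted p = 0.187), without retinoic acid replicate 2 (limma adjusted p = 0.0668) and without agonist replicate 6 (0.0910) or 8 (0.0836), with log2 changes between -0.29 and -0.26.

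The other Ccng1 probe sets, which the annotation ties to the same accession, did not pass. One (1420827_a_at) had 302, 286, 352 and 279 with the agonist, against 339, 313, 340 and 357 with retinoic acid alone, so 3 agonist arrays lay below all arrays of the other group and replicate 7 lay among the highest. Its log2 change was -0.14 (95% interval -0.30 to 0.014, limma adjusted p = 0.470). The dimmest (1450017_at) had 76.2, 70.9, 93.2 and 78.9 with the agonist, against 80.3, 83.4, 74.0 and 98.2 with retinoic acid alone, and these ranges overlapped nearly whole. Its log2 change was -0.061 (95% interval -0.27 to 0.15, limma adjusted p = 0.868). With the 3 probe sets averaged on the log2 scale, Ccng1 changed by -0.17 and did not pass (limma adjusted p = 0.325), so the Ccng1 call rests on 1 of its 3 probe sets.

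Among the other genes of cell cycle arrest, Cdkn1a encodes p21, the inhibitor of cyclin-dependent kinases through which p53 stops the cycle. Its brighter probe set (1424638_at) had 98.8, 92.2, 113 and 79.9 with the agonist, against 99.6, 114, 96.8 and 112 with retinoic acid alone. The groups overlapped, and the log2 change was -0.13 (95% interval -0.33 to 0.082, limma adjusted p = 0.678), or -0.054 without agonist replicate 8 and -0.20 without agonist replicate 7. The other Cdkn1a probe set (1421679_a_at) lay below the filter and was not tested, having 6.95, 10.8, 7.79 and 19.6 with the agonist, against 5.96, 14.1, 9.14 and 7.02 with retinoic acid alone. It was the 1 member probe set with a log2 change above 0 (0.11, limma adjusted p = 0.899 in the fit without a filter).

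Mdm2, the ubiquitin ligase that holds p53 in check, was measured by 3 probe sets, and none passed. The brightest (1423605_a_at) had 165, 160.2, 190.5 and 169 with the agonist, against 167, 216, 169 and 201 with retinoic acid alone, a log2 change of -0.12 (95% interval -0.31 to 0.065, limma adjusted p = 0.645) that was -0.059 without retinoic acid replicate 2. Another (1427718_a_at) had 78.1, 73.6, 91.6 and 73.4 with the agonist, against 89.4, 112, 77.9 and 112 with retinoic acid alone. In both, retinoic acid replicates 2 and 4 stood above every other array, and retinoic acid replicates 1 and 3 lay within the agonist range. In the second of them the log2 change was -0.25, with an unadjusted 95% interval of -0.48 to -0.019 that lay below 0 (limma adjusted p = 0.359). The dimmest (1457929_at) had 17.0, 19.9, 20.9 and 5.80 with the agonist, against 15.99, 16.1, 21.8 and 15.5 with retinoic acid alone, a log2 change of -0.089 (limma adjusted p = 0.889) that was 0.084 without agonist replicate 8.

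Trp53inp1 encodes a stress protein that p53 induces and that in turn favours its apoptotic targets. Its brighter probe set (1416927_at) had 112, 94.1, 98.2 and 105 with the agonist, against 112, 112, 108 and 126 with retinoic acid alone, with agonist replicate 5 inside the range of the other group and the other agonist arrays below it. The log2 change was -0.14 (95% interval -0.32 to 0.038, limma adjusted p = 0.553). The dimmer one (1416926_at) had 45.2, 48.1, 68.3 and 56.3 with the agonist, against 65.9, 64.7, 56.8 and 76.3 with retinoic acid alone. Here agonist replicate 7 lay inside the other group's range, and the log2 change was -0.22 (95% interval -0.46 to 0.018, limma adjusted p = 0.457).

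Bbc3 encodes PUMA, a BH3-only protein that binds the protective members of the BCL2 family and is a main link from p53 to mitochondrial apoptosis. Its probe set (1423315_at) had 32.6, 59.98, 63.3 and 52.1 with the agonist, against 69.2, 74.1, 51.0 and 70.5 with retinoic acid alone. Agonist replicate 5 was the lowest and retinoic acid replicate 3 the next lowest, so the groups overlapped through 1 array without the agonist. The log2 change was -0.29 (95% interval -0.59 to 0.0080, limma adjusted p = 0.423). It was -0.14 without agonist replicate 5 and -0.12 within the second hybridisation day, which lacks that array.

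Sesn2 encodes sestrin 2, a stress protein that restrains mTORC1, and Zmat3 encodes a zinc finger RNA-binding protein that acts in p53-dependent growth control. The brighter Sesn2 probe set (1451599_at) had 152, 165, 153 and 151 with the agonist, against 156, 172, 198 and 163 with retinoic acid alone, and all agonist arrays but replicate 6 lay below the other group. Its log2 change was -0.13 (95% interval -0.30 to 0.040, limma adjusted p = 0.569), or -0.068 without retinoic acid replicate 3. The dimmer one (1425139_at) had a mean of 24.8 ± 3.61 with the agonist and 25.7 ± 2.18 with retinoic acid alone (SD, n = 4 each), a log2 change of -0.036 (limma adjusted p = 0.945). Zmat3 (1449353_at) had 34.0, 47.5, 51.5 and 42.4 with the agonist, against 39.0, 51.9, 46.0 and 60.9 with retinoic acid alone. The Zmat3 groups overlapped over most of their range, with a log2 change of -0.13 (95% interval -0.39 to 0.13, limma adjusted p = 0.744) that was -0.21 without retinoic acid replicate 1, -0.044 without agonist replicate 5 and -0.046 without retinoic acid replicate 4.

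**Figure D2:**
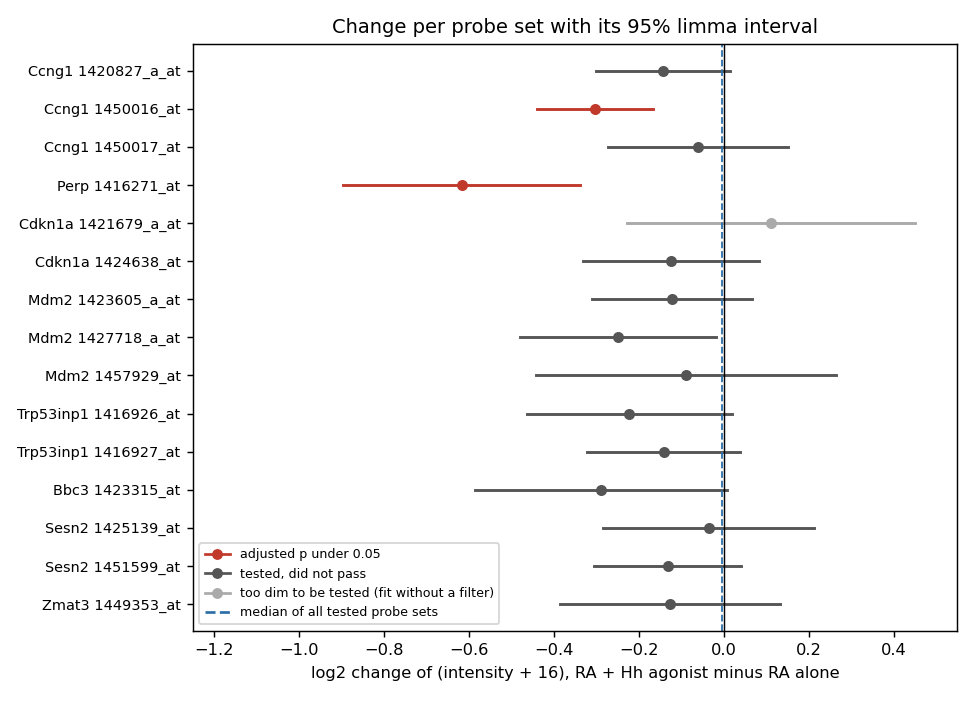
Log2 change of (intensity + 16), retinoic acid with the agonist minus retinoic acid alone, for each of the 15 probe sets with its 95% limma interval, and the median of all tested probe sets as a dashed line. Perp and Ccng1 1450016_at (red) passed, 12 tested probe sets (dark grey) did not, and the dim Cdkn1a probe set (light grey) was not tested.

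The 14 tested probe sets all had a log2 change below 0, from -0.62 to -0.036, as did 51.3% of all tested probe sets. Their median was -0.14, against -0.005 over all tested probe sets. The probe sets of 1 gene share its transcript. Taken by their brightest probe sets, all 8 genes lay below 0, as did 51.8% of 13675 tested genes, with a median of -0.14 against -0.006. The 12 probe sets that did not pass had limma adjusted p-values of 0.359 to 0.945. Their 95% intervals together spanned -0.59 (Bbc3) to 0.27 (Mdm2 1457929_at), and these ends belong to different probe sets. A fall nearly as large as the estimate for Perp thus remains possible for Bbc3. The interval of Mdm2 1427718_a_at lay below 0, and each of the others included 0. All 4 agonist arrays lay below all 4 retinoic acid arrays for 2 of the 14 probe sets and for 3.51% of all tested probe sets. Because the members were chosen with earlier results of these data known, these shares describe the list and carry no test.

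The shared downward direction was uneven between arrays. Agonist replicates 5 and 8 lay below the mean of the retinoic acid arrays for all 14 tested probe sets, replicate 6 for 12 and replicate 7 for 7. Retinoic acid replicates 1 to 4 themselves lay below that mean for 11, 5, 10 and 3 of the 14. Agonist replicate 6 was thus close to retinoic acid replicate 1 in this count, and agonist replicate 7 was below less often than retinoic acid replicates 1 and 3. Averaged over the 14 probe sets, each centred on its own mean, the agonist arrays stood at -0.14, -0.092, 0.044 and -0.20 for replicates 5 to 8, against 0.030, 0.14, 0.022 and 0.19 for retinoic acid replicates 1 to 4. Agonist replicate 7 thus lay above retinoic acid replicates 1 and 3. Retinoic acid replicate 4 was the highest of the 8 arrays for 6 of the 14 probe sets and replicate 2 for 5, and agonist replicate 8 was the lowest for 8.

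**Figure D3:**
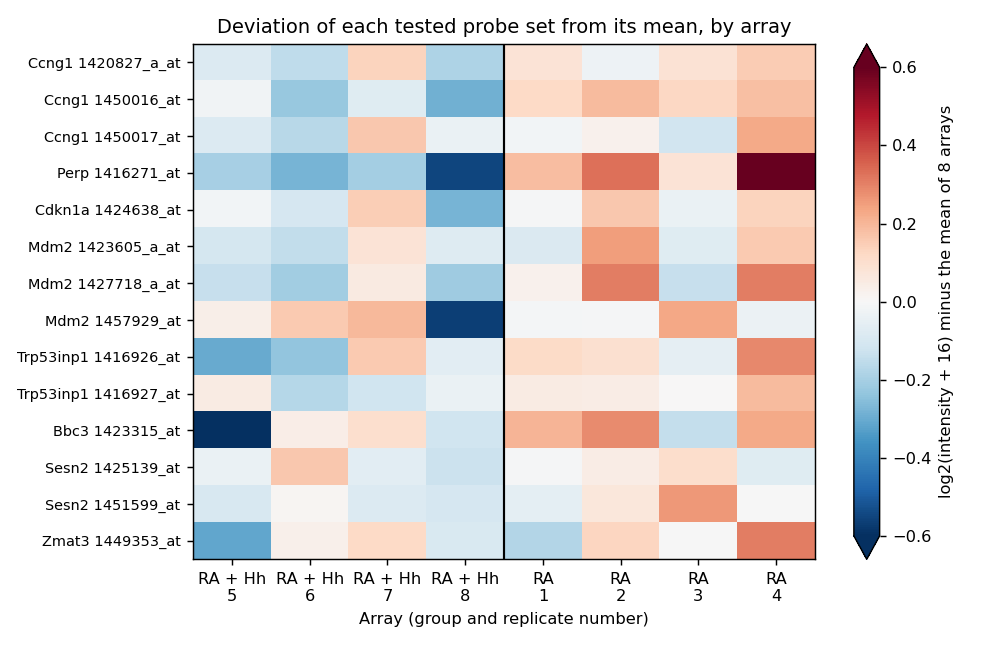
Deviation of log2(intensity + 16) from the mean of the 8 arrays for the 14 tested probe sets (rows), by array (columns, agonist at the left, retinoic acid alone at the right). Agonist replicates 5 and 8 are blue in most rows, retinoic acid replicates 2 and 4 are red in most rows, and agonist replicate 7 is mixed.

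The instrument records place the arrays on 2 hybridisation days. Agonist replicate 5 and retinoic acid replicate 1 shared the first day and a fluidics station. On the second day the 3 agonist arrays ran on station 2 and the 3 retinoic acid arrays on station 1, so on that day station and group cannot be told apart. Within the first day, with 1 array a group and no test, the log2 change was -0.39 for Perp and -0.14 for Ccng1 1450016_at. Within the second day it was -0.69 for Perp (limma adjusted p = 0.0414) and -0.36 for Ccng1 1450016_at (limma adjusted p = 0.0266). The arrays had median intensities of 21.6 to 22.6. Precision is limited by having 4 arrays a group.

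Embryoid bodies hold several cell types, and in such mixed samples fewer cells of a type and less RNA per cell cannot be told apart. The other known setting of Perp is the desmosomes of stratified epithelia. Of 15 tested genes of a list of desmosomes and simple epithelium Krt18, Krt8 and Cldn4 fell, none rose and 12 did not pass, and 12 of the 15 changes were below 0 with a median of -0.30. Of all tested genes, each by its brightest probe set, 0.870% were called lower. Krt18, a keratin of simple epithelia, had 464 ± 35.6 with the agonist and 607 ± 29.3 with retinoic acid alone (SD, n = 4 each, limma adjusted p = 0.00182). Cldn4, a tight junction claudin, had 67.0 ± 6.35 with the agonist and 97.8 ± 8.32 with retinoic acid alone (SD, n = 4 each, limma adjusted p = 0.0127). The genes of the desmosome itself did not pass, among them Pkp1 with a log2 change of -0.54 (limma adjusted p = 0.194), Jup with -0.13 and Dsg2 with 0.0040, and Dsp was too dim to be tested.

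The summed intensity of the 16 desmosome and epithelial genes was 1649.5 to 1871 with the agonist and 2069 to 2316 with retinoic acid alone, without overlap. Retinoic acid replicate 4 was highest in this sum. Krt18, the brightest gene of the list, weighed most in it, and no sum was taken without Krt18. The sum of 16 pluripotency genes was 6282 to 6669.5 with the agonist and 6285 to 7368 with retinoic acid alone, with retinoic acid replicates 2 and 4 highest. Dppa5a, with a log2 change of -0.006, made up 58.8% of this sum, and without it, left out after the data were seen, the sums were 2397 to 2695 with the agonist and 2556 to 3354 with retinoic acid alone, still overlapping. Of the 16 pluripotency genes Klf2 and Dppa4 fell, none rose and 14 did not pass, and 13 of the 16 changes were below 0 with a median of -0.24. The sum of 10 genes of young neurons was 2329 to 2504 with the agonist and 820.2 to 903 with retinoic acid alone, and 8 of the 10 rose. For 10 neural progenitor genes it was 2632 to 2852 with the agonist and 2339 to 2621 with retinoic acid alone, but 65.5% of this sum was Vim, which many cell types express. Without Vim, left out after the data were seen, the sums overlapped, at 843 to 936 with the agonist and 858 to 992 with retinoic acid alone. Of the 9 tested neural progenitor genes Fabp7 (log2 change 0.73) and Vim (0.21) rose, Pax6 fell (-1.06) and 6, among them Sox2 and Nes, did not pass, while Sox1 was too dim to be tested. In limma's test none of 7 tested mesoderm, 7 endoderm or 7 blood and endothelial genes passed (0, 1 and 0 at an unadjusted p under 0.05), with sums of 320.1 to 343, 329 to 368 and 313 to 348 with the agonist, and 311 to 338, 323 to 374 and 325 to 376 with retinoic acid alone. No marker of any of these lists was at 0 on all arrays. Values of exactly 0 were rare, at 62 to 88 probe sets an array, so this does not show that each marker was expressed. The part of any of these cell types in the changes of Perp and Ccng1 was not tested.

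**Figure D4:**
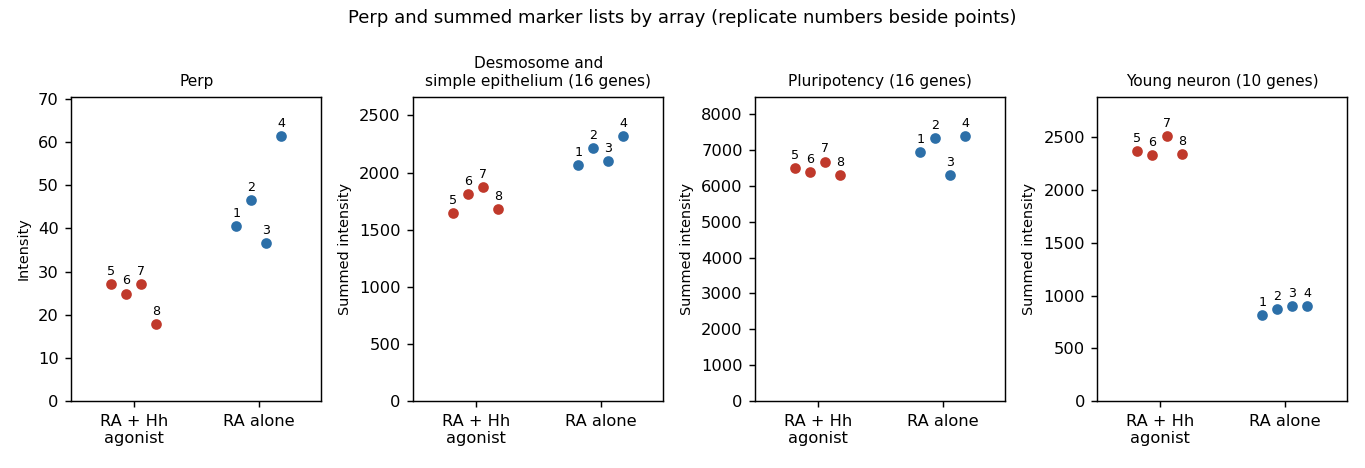
Intensity of Perp and summed intensity of 3 marker lists on each array (linear axes from 0, replicate numbers above the points), with the agonist at the left and retinoic acid alone at the right of each panel. Perp, the epithelial sum (1649.5 to 1871 against 2069 to 2316) and the neuronal sum (2329 to 2504 against 820.2 to 903) separate the groups, while the pluripotency sums overlap.

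The rest of the pathway was followed in 6 lists of 118 genes, of which 110 had a probe set and 101 were tested by their brightest one. Of the 101 genes 4 fell, 1 rose and 96 did not pass. Changes below 0 were found for 64 of them, with a median of -0.049 against -0.006 over all tested genes, of which 0.870% were called lower and 1.31% higher. The lists were chosen with earlier results of these data known and serve as a description.

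Of 30 tested further p53 targets 2 fell and 1 rose, and the median change was 0.018. Psrc1, a microtubule-binding protein of the mitotic spindle, had 849, 841, 871 and 836 with the agonist, against 988, 1027, 969 and 993 with retinoic acid alone. The groups stood well apart, with a log2 change of -0.22 (SE 0.045, limma adjusted p = 0.0107), while its 2 dimmer probe sets did not pass (-0.19 and -0.051). Phlda3, a p53-induced repressor of Akt signalling, had 109, 101, 111 and 111 with the agonist, against 140.0, 142, 125 and 154 with retinoic acid alone, a log2 change of -0.33 at the edge of the threshold (limma adjusted p = 0.0495, and 0.0532 with the day as a block). Fbxw7, the substrate-binding part of a ubiquitin ligase that removes cyclin E, had 94.6, 92.4, 90.0 and 76.8 with the agonist, against 53.9, 62.4, 58.1 and 69.3 with retinoic acid alone. It rose by 0.44 on the log2 scale (limma adjusted p = 0.0212), and its other probe set rose by 0.49 (limma adjusted p = 0.0244). Plk3, chosen after its values were seen as the largest change of this list, had 27.1 ± 8.77 with the agonist and 13.4 ± 7.49 with retinoic acid alone (SD, n = 4 each) and did not pass (limma adjusted p = 0.203).

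Among 16 tested genes of cell cycle arrest and the G1/S transition, Ccna2 and Pcna fell, none rose and 14 did not pass, with a median change of -0.072. Ccna2, the cyclin of S phase and G2, had 504, 481, 504 and 492 with the agonist, against 620, 595, 623 and 541 with retinoic acid alone (limma adjusted p = 0.0261). Pcna, the sliding clamp of DNA replication and also a p53 target, had 1408, 1362, 1409 and 1415 with the agonist, against 1607, 1538.5, 1595 and 1535 with retinoic acid alone (limma adjusted p = 0.0380). The groups did not overlap in these 2 probe sets, and the changes were small, at -0.26 and -0.16 on the log2 scale. The other Ccna2 probe set had overlapping groups and did not pass (-0.24, limma adjusted p = 0.167). Of the 4 genes that fell over all 6 lists, 1 (Psrc1) still passed without retinoic acid replicate 1 and 0 without replicate 2. Without retinoic acid replicate 3 there were 2 that passed, and 3 (Ccna2, Pcna and Psrc1) without replicate 4. It was 1 (Psrc1) without agonist replicate 5 or 8, 0 without replicate 6 and 2 without replicate 7. Within the second hybridisation day, or without an intensity trend, 0 of the 5 genes that fell or rose passed. Fbxw7 did not pass when retinoic acid replicate 1 (limma adjusted p = 0.0763), retinoic acid replicate 2 (0.0574), agonist replicate 5 (0.0756) or agonist replicate 6 (0.0884) was left out.

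No gene passed limma's test in the other 4 lists, where 6 had an unadjusted p under 0.05 and the medians of all tested members lay between -0.098 and -0.023. For 15 regulators of p53 the largest changes were those of Chek1, a kinase of the replication checkpoint, and of Usp7, a deubiquitinase of Mdm2 and p53. The brightest Chek1 probe set had 103 ± 14.8 with the agonist and 138 ± 17.0 with retinoic acid alone (SD, n = 4 each). Its log2 change was -0.37 (limma adjusted p = 0.0844, and 0.0363 without retinoic acid replicate 3, the only alternative in which it passed). The other tested Chek1 probe set changed by -0.12 (limma adjusted p = 0.688), and those too dim to be tested lay above 0. The brightest Usp7 probe set had a log2 change of -0.22 (limma adjusted p = 0.387). The other tested Usp7 probe sets, with changes from -0.29 to -0.008, did not pass. Of 14 BCL2 family genes Bmf, a BH3-only activator of apoptosis, had 464, 464.5, 467 and 407 with the agonist, against 544, 542, 527 and 492 with retinoic acid alone. The Bmf groups did not overlap, but its log2 change of -0.22 did not pass (limma adjusted p = 0.0937), and in its other tested probe set the groups overlapped (0.016, limma adjusted p = 0.980). Hrk, another BH3-only gene, had 0.22 (limma adjusted p = 0.538). Of 16 caspase and apoptosome genes Casp8, the initiator caspase of death receptors, had a log2 change of -0.22 (limma adjusted p = 0.655), and Birc5, the survivin gene of mitosis and caspase inhibition, had -0.21 (limma adjusted p = 0.303). Of 10 death receptor genes Daxx, a nuclear protein that binds Fas, had -0.19 (limma adjusted p = 0.324), and Fasl, the ligand of Fas, had 0.17 (limma adjusted p = 0.680).

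**Figure D5:**
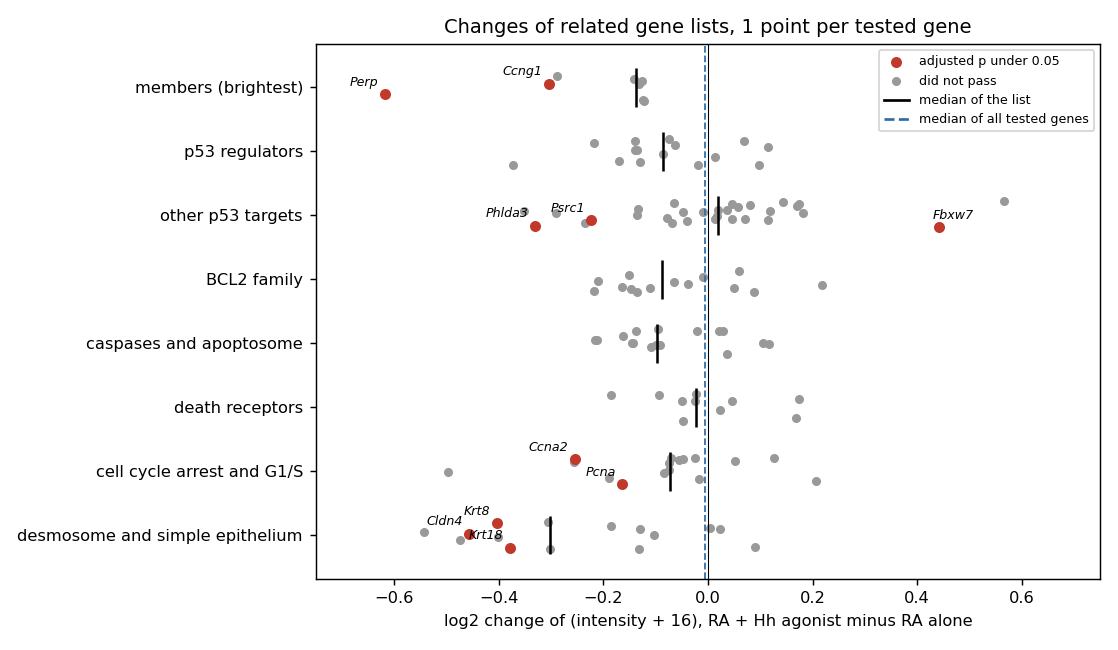
Log2 change of (intensity + 16), retinoic acid with the agonist minus retinoic acid alone, of each tested gene by its brightest probe set in the members, the 6 pathway lists and the desmosome and simple epithelium list, with list medians as black bars. Genes that passed are red and named. All but Fbxw7 lie below 0, and the desmosome and epithelial list has the lowest median of the lists shown, at -0.30.

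The genes whose profile over the 8 arrays was most like that of Ccng1 1450016_at, by the mean absolute difference of centred log2 values, were Srpr (0.031), Stx3 (0.034), Hat1 (0.039), Cbx1 (0.040) and Cherp (0.041), where the median over 13667 genes was 0.18. These genes were picked for a profile like that of a probe set already called, so their values describe the choice and carry no test. Hat1, a histone acetyltransferase gene, had 805 ± 48.6 with the agonist, against 975 ± 20.02 with retinoic acid alone (SD, n = 4 each), and Cbx1, a heterochromatin protein gene, had 445 ± 36.2 with the agonist, against 557 ± 14.7 with retinoic acid alone (SD, n = 4 each). For Perp the nearest were Fam117a (0.080), Rffl (0.095), Mymx (0.096), Hook1 (0.098) and Itgb5 (0.098), where the median was 0.32. Fam117a had 71.7 ± 9.73 with the agonist, against 113 ± 15.3 with retinoic acid alone (SD, n = 4 each), and Hook1, an adaptor of microtubule transport, had 102 ± 7.18 with the agonist, against 151 ± 10.9 with retinoic acid alone (SD, n = 4 each). None of the nearest genes of Ccng1 was among those of Perp. This measure favours genes with a change of like size, and Ccng1 and Perp changed by different amounts, so the lack of overlap says nothing further.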

How the data were processed

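Total RNA of 8 embryoid body samples was measured on 1-colour Affymetrix Mouse430_2 arrays. The table deposited by the authors holds a linear intensity per probe set and array, already level between arrays. Their background correction, probe summary and normalization are not given in the sources used here. Hybridisation day and fluidics station are as recorded per the file headers. The annotation, which can be old, names 1 gene for 34945 of 45101 probe sets, several for 932 and is not given for 9160, besides 64 controls left out of the tests. By gene identifier 34741 matched RefSeq.

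Values were taken as log2(intensity + 16). Tests were run on probe sets with a mean over 8 arrays above the 40th percentile, an intensity of 15.1, which left 27022 tested. Groups were compared with limma 3.58.1 in R 4.3.3 (two-sided; lmFit, then eBayes allowing the variance a trend with intensity), p-values being Benjamini-Hochberg adjusted over all tested probe sets, and the procedure was tested on simulated data. Intervals are unadjusted. Lists used each gene's brightest probe set. The named genes are all members, the genes of the 6 pathway lists that passed, or in a list with none the 2 largest changes, and the 5 nearest profiles of each called member. Genes named from the marker lists are examples chosen after their values were seen. The members and lists were chosen with earlier results of these data known. Alternatives were quantile normalization, median centring, 1 or 64 added, no filter or the 60th percentile, no trend, array weights, the day as a block or the second day alone, gene means, and leaving out each array.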

Additional observations from a re-analysis of the deposited data

Results flagged for a closer look

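In groups of 4 arrays, 56 were examined for an array far from the other 3 on the log2 scale, and 4 had one, where chance flags about 1 in 20. Sesn2 1451599_at was high in agonist replicate 6, at 165 against 151 to 153 in the other agonist arrays. Mdm2 1457929_at was high in retinoic acid replicate 3, at 21.8 against 15.5 to 16.1 in the other arrays of that group. Bmf was low in agonist replicate 8, at 407 against 464 to 467 in the other agonist arrays. Pcna was low in agonist replicate 6, at 1362 against 1408 to 1415 in the other agonist arrays.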

How the results depend on the processing

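No paired analysis was possible because the groups share no replicate numbers. The 2 member probe sets called lower were 0 without an intensity trend, 1 (Perp) when a gene's probe sets were averaged, and 0 to 2 when each array was left out. They were 2 under quantile normalization, median centring, array weights, the day as a block, the second day alone, both other added constants and both other filters, and no member was called higher under any alternative run. The number of pathway genes called lower, 4, was 3 with 1 added or with the day as a block (Phlda3 lost). It was also 3 under quantile normalization (Ccna2 lost) and when a gene's probe sets were averaged (Psrc1 lost). It was 2 with no filter, 0 without an intensity trend, 0 within the second day, and 0 to 4 when each array was left out. Those fits kept 0 to 3 of the original 4, and the 4 called without retinoic acid replicate 3 were 2 of these with Chek1 and Ccnd3. The number called higher, 1, was 2 with the day as a block (Fbxw7 and Plk3), 0 without a trend, 0 within the second day, and 0 to 1 when each array was left out. With each array left out, 3 uncalled member probe sets changed sign: the log2 change ranged from -0.13 to 0.0040 for Ccng1 1450017_at (above 0 without retinoic acid replicate 4), from -0.17 to 0.084 for Mdm2 1457929_at and from -0.095 to 0.0010 for Sesn2 1425139_at (both above 0 without agonist replicate 8). The summed intensity of the neural progenitor list, on average 198 higher with the agonist than with retinoic acid alone, had a difference of -47.6 without Vim, an alternative chosen after seeing the data. The Perp log2 change ranged from -0.89 to -0.32 and that of Ccng1 1450016_at from -0.36 to -0.26 over 18 alternatives. The cause of these changes was not tested, and a fit that leaves out an array also has fewer arrays to estimate the spread. Probe sets near the filter level of 15.1, such as Mdm2 1457929_at, carry little signal.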
